A study of Mus musculus with 6 samples.

Results

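UCON and Eulor rows are the repeat families named for ultraconserved elements (UCON) and for conserved repeats of low copy number shared across bony vertebrates (Eulor). They were taken as every row, of any repeat class, whose name begins with UCON or Eulor. This gave 105 of the 1336 rows in the files, 84 UCON and 21 Eulor. RNA was measured in cultured embryonic fibroblasts of BALB/c mice, from embryos of 10.5 days. The wild-type group (WT) had 3 libraries, and the β-actin knockout group (KO, Actb-/-) also had 3. The series calls the replicates biological, and the labels do not say how many embryos or cell lines they came from, so p-values measure the spread between these libraries only. Each library was total RNA depleted of ribosomal RNA, and its reads were summed over all genomic copies of each repeat row. No protein-coding gene is among the rows, so neither Actb nor markers of fibroblasts were analysed here.

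These families are remnants of mobile elements that inserted before the mammalian orders, or in many cases before the vertebrate classes, separated. Their copies are few, short and old, and none is known to move today. Many copies were retained under selection as conserved noncoding sequence, and some act as enhancers of developmental genes. RNA assigned to them can come from a transcript of the surrounding gene, from an enhancer RNA or from a long noncoding RNA, and summed counts cannot tell these apart.

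The libraries held between 7708630 counts (WT replicate 1) and 19288620 counts (KO replicate 1). Ribosomal RNA took the smallest shares in WT replicate 1, with 32.4% of the counts, and KO replicate 2, with 52.9%, and between 73.7% and 84.8% in the other 4 libraries. Levels are given as normalized CPM, that is per-library CPM on the TMM effective size, a scale that follows the bulk of repeat rows and not the ribosomal RNA. The UCON and Eulor rows together held from 1385 counts in KO replicate 1 to 4460 counts in WT replicate 1.

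Most of these families were too rare to be tested. Of the 105 rows, 43 (41.0%) had enough counts, against 89.3% of all rows in the files. They were 36 of 84 UCON rows and 7 of 21 Eulor rows. Enough meant reaching a CPM of 0.614 on the raw total in at least 3 libraries, which is 4.73 counts for WT replicate 1 and 11.8 for KO replicate 1. The row nearest to this limit on its inner side was UCON5, with 48 counts over the 6 libraries. UCON48, UCON66 and UCON8 tied for the next place, with 46, 45 and 67 counts. The 3 just outside were UCON60, UCON86 and UCON71, with 61, 42 and 35 counts, UCON60 having 19 of its counts in WT replicate 1. The 62 untested rows had a median of 14.5 counts over all libraries. Of them 20 had counts in every library, 39 in some libraries and 3 in none. The rows with no count were UCON61, UCON92 and Eulor7, for which a count of 0 allows up to 3 counts per library, or 0.124 normalized CPM in WT replicate 1 and 0.390 in WT replicate 2. All such limits cover counting error only.

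**Figure D1:**
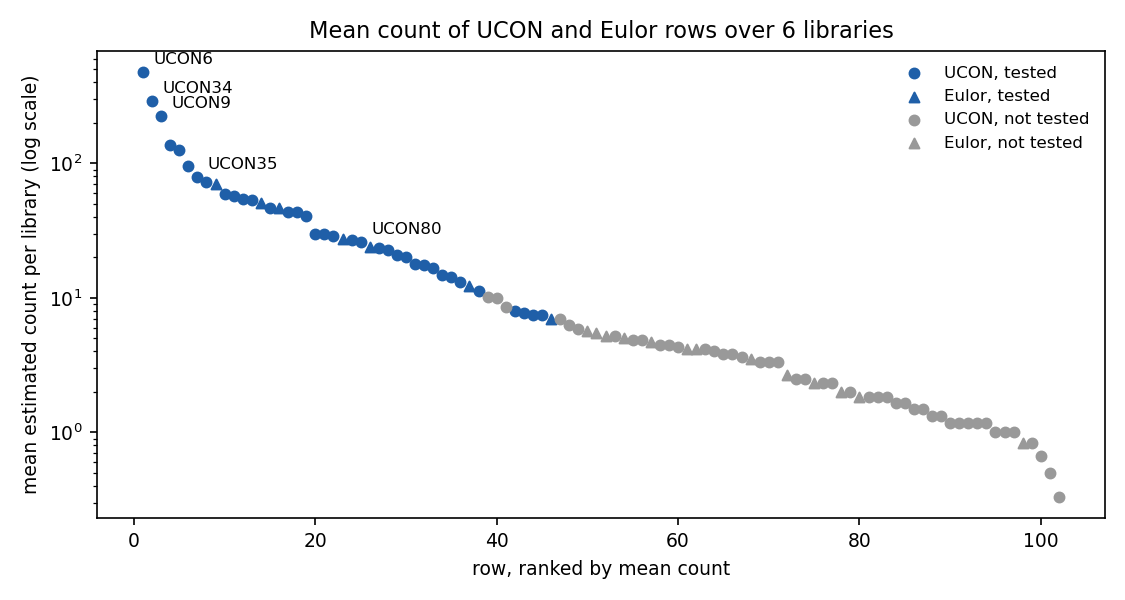
Mean estimated count per library (y axis, log scale) of 102 UCON and Eulor rows ranked by that mean (x axis); circles are UCON and triangles Eulor, blue tested and grey not tested, and 3 rows with no count are not drawn. UCON6 leads with a mean of 478 counts, and only 5 rows reach a mean of 100.

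A handful of families carried much of the signal. The 43 tested rows held 92.9% of the counts of all 105, and the 5 most counted rows held 46.6%. These 5 were UCON6, UCON34, UCON9, UCON29 and UCON70. UCON6 alone held from 15.3% of the group's counts in KO replicate 1 to 20.6% in WT replicate 3. Mean levels of tested rows ran from 0.452 normalized CPM for UCON89 to 31.3 for UCON6. The median tested row had a mean of 28.8 counts per library, against 219 for all tested rows. Its spread between replicates was wider too, with a median coefficient of variation of 21.2% in WT and 20.5% in KO, against 9.37% and 9.49% over all tested rows. Over these families replicates of a genotype differed by more than counting error, with a chi-square of 1.26 to 2.01 per degree of freedom for the 6 pairs of libraries.

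By the annotation in the files, 49 of the rows had class Unknown, 31 DNA (cut-and-paste transposons), 22 DNA? (possible DNA transposons), 2 LTR? and 1 LINE. Those of class Unknown held 43.4% of the counts and those of class DNA 43.3%. Among the tested rows 9 were annotated to the hAT superfamily of DNA transposons, 5 to the Tc1/mariner superfamily and 1, UCON29, to Kolobok. The other 28 had no superfamily. Rows whose family was marked as uncertain, such as UCON80, UCON105 and Eulor8, were included. The single LINE row, UCON86 of the L2 family, and the LTR? rows UCON51 and UCON103 were not tested.

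The comparison of KO with WT asked whether cells without β-actin, a cytoskeletal protein that is also a nuclear subunit of chromatin remodelling complexes, differed in RNA of these conserved families. UCON80, UCON35 and UCON9 fell in KO, to 0.144, 0.426 and 0.724 of the WT level, and no family of the group rose past the threshold. In such bulk libraries fewer cells making an RNA and less of it per cell cannot be told apart. Thus 3 of 43 tested rows (6.98%) were called lower, where 3.60% of all 1193 tested rows were. None was called higher, against 2.18% of all tested rows, and calls of either direction made up 5.78% of all tested rows (edgeR quasi-likelihood test, Benjamini-Hochberg adjusted over 1193 rows at 0.05). The median log2 fold change was 0.07, with 23 rows above 0 and 20 below, and 0.01 over all tested rows. That median moved to between -0.06 and -0.04 with a stricter count filter and to -0.05 without WT replicate 1, so its sign depended on which rare rows and libraries were kept.

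**Figure D2:**
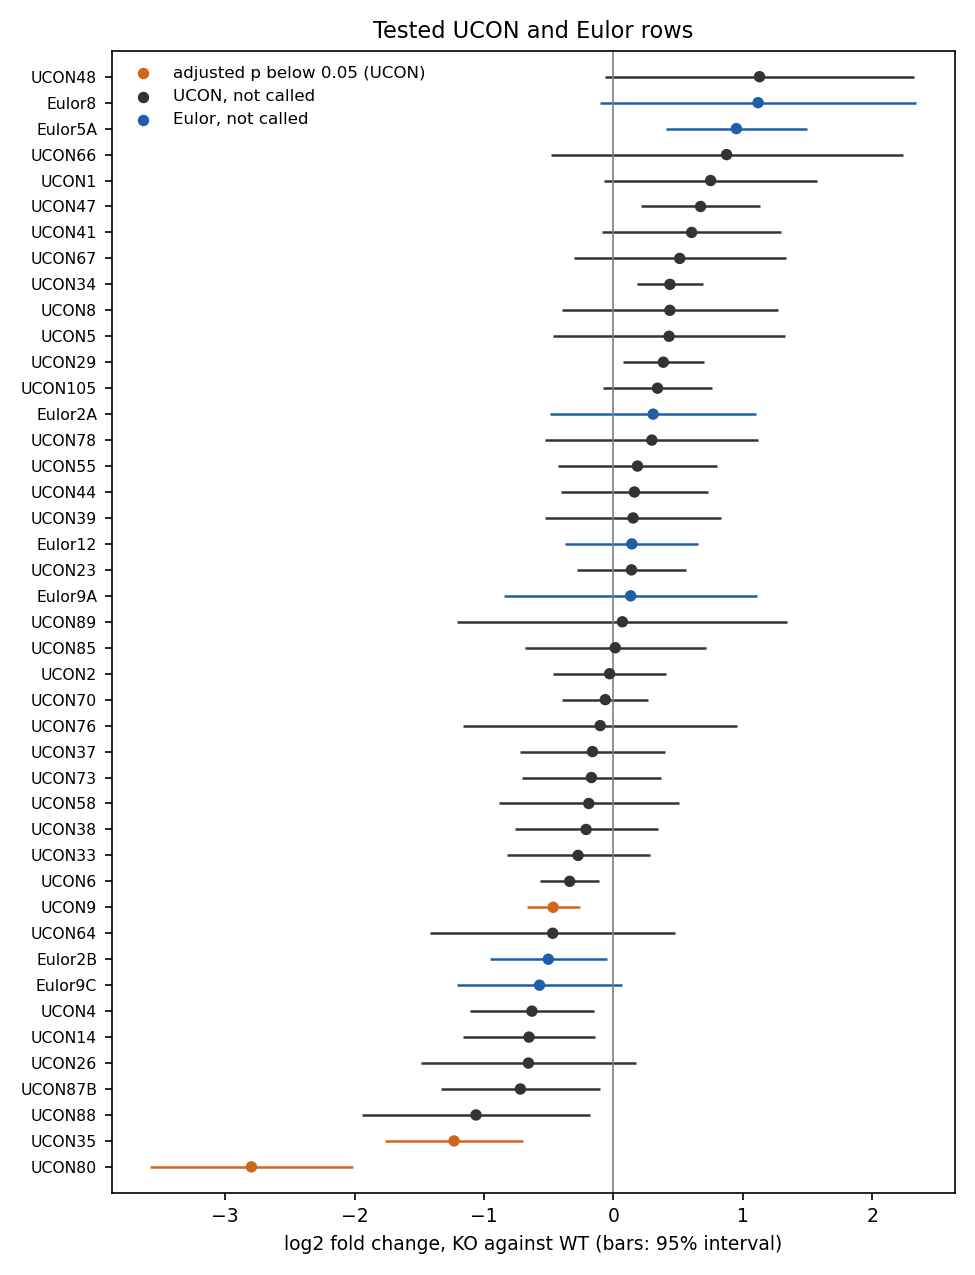
Log2 fold change of KO against WT (x axis) for the 43 tested rows, points with 95% intervals; orange rows passed an adjusted p of 0.05, black are other UCON rows and blue are Eulor rows. UCON80 and UCON35 stand at -2.80 and -1.23, and the intervals of most other rows span 0.

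UCON80, annotated as a possible hAT transposon, showed the largest change of the group. Its level was 3.07, 2.08 and 3.34 normalized CPM in WT replicates 1, 2 and 3, and 0.368, 0.546 and 0.270 in the KO replicates. The highest KO library thus stood well below the lowest WT library. On the log2 scale the fold change was -2.80 (standard error 0.34, 95% interval -3.58 to -2.01, edgeR adjusted p = 0.00429). It was the second lowest fold change among the 1193 tested rows. The row is rare, with 74, 16 and 48 counts in WT and 3, 11 and 4 in KO. It passed without any single library, with values of -3.22 to -2.56, but missed the threshold when WT replicate 1 and KO replicate 2, lowest in ribosomal RNA, were both left out (-3.15, edgeR adjusted p = 0.0501). The similarly named UCON80_AMi, of class Unknown, was not tested, with 5, 4 and 2 counts in WT and 0, 7 and 2 in KO.

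UCON35, a DNA transposon of no stated superfamily, had 6.60, 8.06 and 8.14 normalized CPM in WT and 2.82, 4.12 and 2.29 in KO. The ranges were again apart, and WT replicate 1 and KO replicate 2 were the closest pair. Its log2 fold change was -1.23 (standard error 0.23, 95% interval -1.76 to -0.70, edgeR adjusted p = 0.0205). It did not pass without WT replicate 3 (-1.16, edgeR adjusted p = 0.0880) or without KO replicate 3 (-1.03, edgeR adjusted p = 0.0643). Without WT replicate 1 and KO replicate 2 together it did, at -1.69 (edgeR adjusted p = 0.0292).

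UCON9, of class Unknown, was the third most counted family. It stood at 18.8, 16.4 and 16.4 normalized CPM in WT and 12.01, 12.8 and 12.7 in KO, 17.2 ± 1.36 against 12.5 ± 0.433 (mean ± SD, n = 3). The KO libraries were close together and all lower. Its log2 fold change was -0.47 (standard error 0.09, 95% interval -0.67 to -0.26, edgeR adjusted p = 0.0206). This call was the least stable of the 3: it was lost on leaving out WT replicate 1 (-0.38) or 3 (-0.50), KO replicate 2 (-0.48) or 3 (-0.47), and without WT replicate 1 and KO replicate 2 together (-0.40). UCON9B, the row that shares its name, had 6, 3 and 5 counts in WT and 5, 6 and 2 in KO and was not tested.

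**Figure D3:**
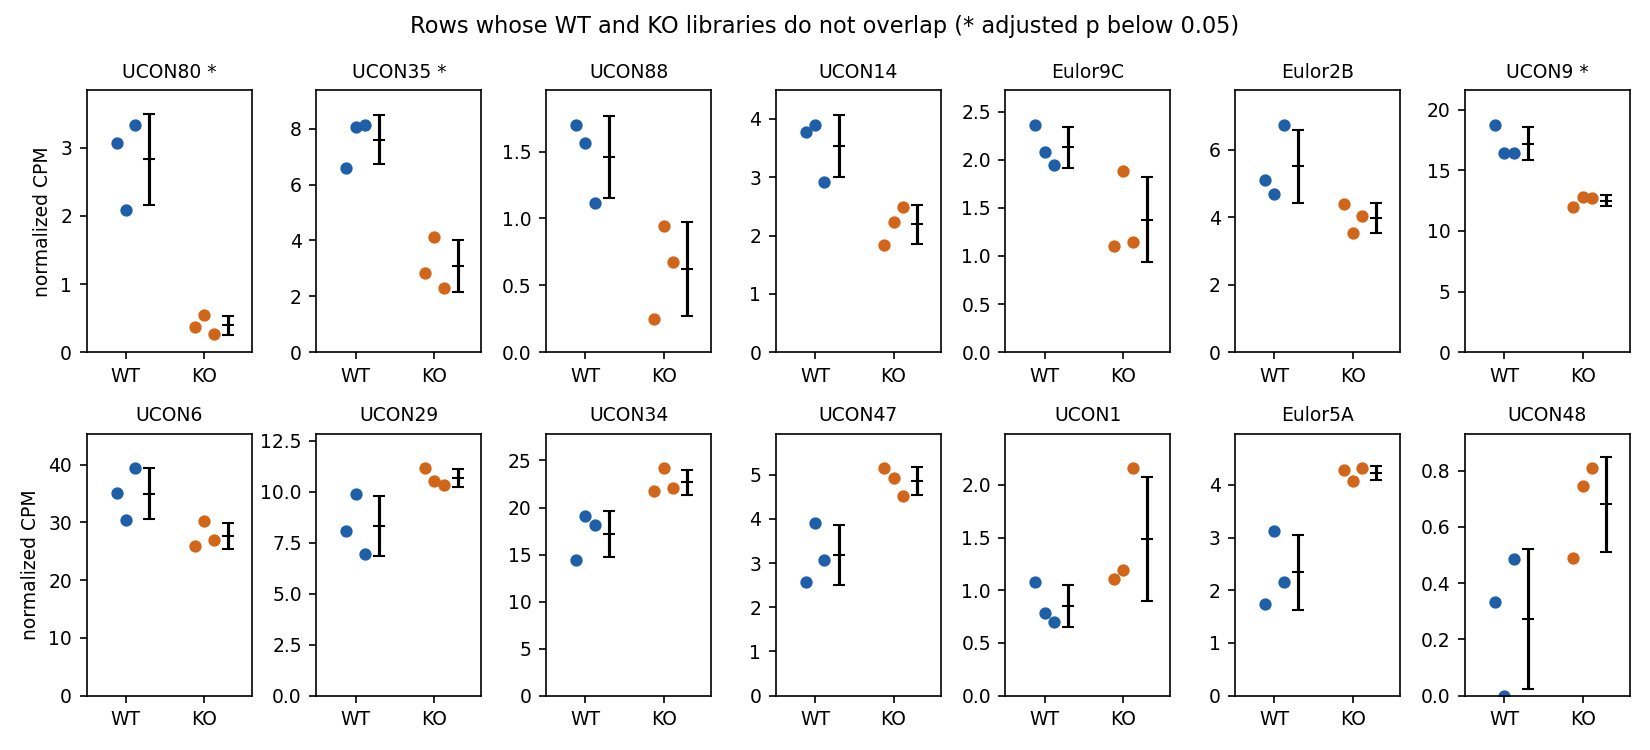
Normalized CPM (y axis, from 0, a scale for each panel) in each of the 3 WT libraries (blue) and 3 KO libraries (orange) for the 14 tested rows whose genotypes do not overlap; black bars are mean ± SD, and an asterisk marks an adjusted p below 0.05. UCON80 drops from between 2.08 and 3.34 to between 0.270 and 0.546.

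The 3 KO libraries lay all above or all below the 3 WT libraries in 14 of the 43 tested rows, 6 higher and 8 lower, or 32.6%. Over all tested rows the share was 25.8%, with 12.4% higher and 13.4% lower. Among the 8 lower rows were the 3 called ones. UCON6, the most abundant family and of class Unknown, had 35.1, 30.4 and 39.4 normalized CPM in WT and 26.0, 30.2 and 26.9 in KO. WT replicate 2 and KO replicate 2 nearly touched. Its log2 fold change was -0.34 (standard error 0.10) and missed the threshold (edgeR adjusted p = 0.0899). Of the alternatives it passed only without WT replicate 2, at -0.41. UCON14 (-0.65), UCON88 (-1.06), Eulor2B (-0.50) and Eulor9C (-0.57) were the other lower rows, with edgeR adjusted p from 0.135 to 0.292. Eulor9C had 1.95 in WT replicate 3 and 1.89 in KO replicate 2. That gap is less than 1 count in WT replicate 3, which is 0.0696 normalized CPM. The 95% interval of Eulor9C, -1.21 to 0.07, spanned 0.

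The 6 higher rows were UCON34, UCON29, UCON47, UCON1, UCON48 and Eulor5A, none of them past the threshold. UCON34, of the hAT-Charlie family and the second most counted row, had 14.4, 19.1 and 18.1 normalized CPM in WT and 21.8, 24.2 and 22.1 in KO. Its log2 fold change was 0.44 (standard error 0.11, edgeR adjusted p = 0.0636). Of the alternatives it passed only with DESeq2 (0.42, DESeq2 adjusted p = 0.0395). UCON29, the Kolobok row, was at 8.31 ± 1.47 in WT and 10.7 ± 0.431 in KO (n = 3), or 0.39 on the log2 scale (edgeR adjusted p = 0.152). UCON47, of class Unknown, was at 3.18 ± 0.672 and 4.86 ± 0.317, or 0.67 on the log2 scale (edgeR adjusted p = 0.0953). UCON1 and UCON48 had log2 fold changes of 0.75 and 1.13, and their 95% intervals, -0.07 to 1.57 and -0.07 to 2.32, spanned 0. UCON48 had no count in WT replicate 2, which allows up to 0.390 normalized CPM there. Both rows were apart by less than 1 count, which is 0.123 normalized CPM in KO replicate 1. UCON1 had 1.08 in WT replicate 1 and 1.10 in KO replicate 1. UCON48 had 0.487 in WT replicate 3 and 0.490 in KO replicate 1.

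Eulor5A, a possible DNA transposon, was the Eulor row with the smallest p. Its levels were 1.74, 3.12 and 2.16 normalized CPM in WT and 4.29, 4.07 and 4.32 in KO, where the libraries were nearly equal. Its log2 fold change was 0.95 (standard error 0.24, 95% interval 0.40 to 1.49) and narrowly missed the threshold (edgeR adjusted p = 0.0590). It passed with DESeq2 (0.93, DESeq2 adjusted p = 0.0285), with limma-voom (1.01, limma adjusted p = 0.0340) and without WT replicate 2 (1.13, edgeR adjusted p = 0.0395). It missed the threshold when any other single library was left out (edgeR adjusted p from 0.0955 to 0.190). With the replicate block it also missed it (0.90, edgeR adjusted p = 0.192). Its partner Eulor5B had too few counts to be tested, with 5, 0 and 0 in WT and 0, 5 and 6 in KO.

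Among the other tested Eulor rows, lettered rows of one number had fold changes of either sign. Eulor2A was at a log2 fold change of 0.31 and Eulor2B at -0.50, and Eulor9A at 0.13 and Eulor9C at -0.57, none of them called, and the differences within these pairs were not tested. Eulor8, a possible Tc1/mariner element with a mean of 7 counts, was at 1.12 (95% interval -0.11 to 2.34). Eulor12 was at 0.14 (-0.37 to 0.66). The 5 lettered Eulor6 rows were all too rare to be tested and together had 1.02 ± 0.433 normalized CPM in WT and 1.18 ± 0.787 in KO. If reads matching lettered rows were divided between them, those rows are not separate measurements. The rule for assigning such reads (not given in the sources used here) could therefore bear on these values.

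For UCON70, UCON2, UCON4 and UCON105 the difference missed the threshold. UCON70, at 8.40 ± 1.41 normalized CPM in WT and 8.27 ± 0.661 in KO, had a log2 fold change of -0.06 with a 95% interval of -0.39 to 0.27. UCON2, at 3.67 ± 0.449 and 3.63 ± 0.361, had one of -0.03 (-0.46 to 0.40). Both intervals span 0. UCON4, a DNA transposon row, had 7.68, 5.33 and 9.40 in WT and 4.78, 5.51 and 4.45 in KO, with WT replicate 2 inside the KO range (log2 fold change -0.63, edgeR adjusted p = 0.129). Its 95% interval, -1.11 to -0.15, excludes 0 before adjustment over all rows. UCON105, annotated as a possible hAT element, was at 0.34 (edgeR adjusted p = 0.346) and turned to -0.11 when libraries were scaled by total counts.

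By superfamily, uncertain annotations included, the tested hAT rows had log2 fold changes of -2.80 to 0.44, 4 above 0 and 5 below. The single call was UCON80, a possible hAT element. The Tc1/mariner rows ran from -0.27 to 1.12, the latter for Eulor8, a possible element of that superfamily. Of them 4 were above 0 and 1 below, with no call. The 28 rows without a superfamily split evenly, 14 above and 14 below, and held UCON35 and UCON9. Members of class Unknown had a median log2 fold change of 0.01 over 15 tested rows, those of class DNA 0.13 over 21, and those of class DNA? -0.03 over 7.

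**Figure D4:**
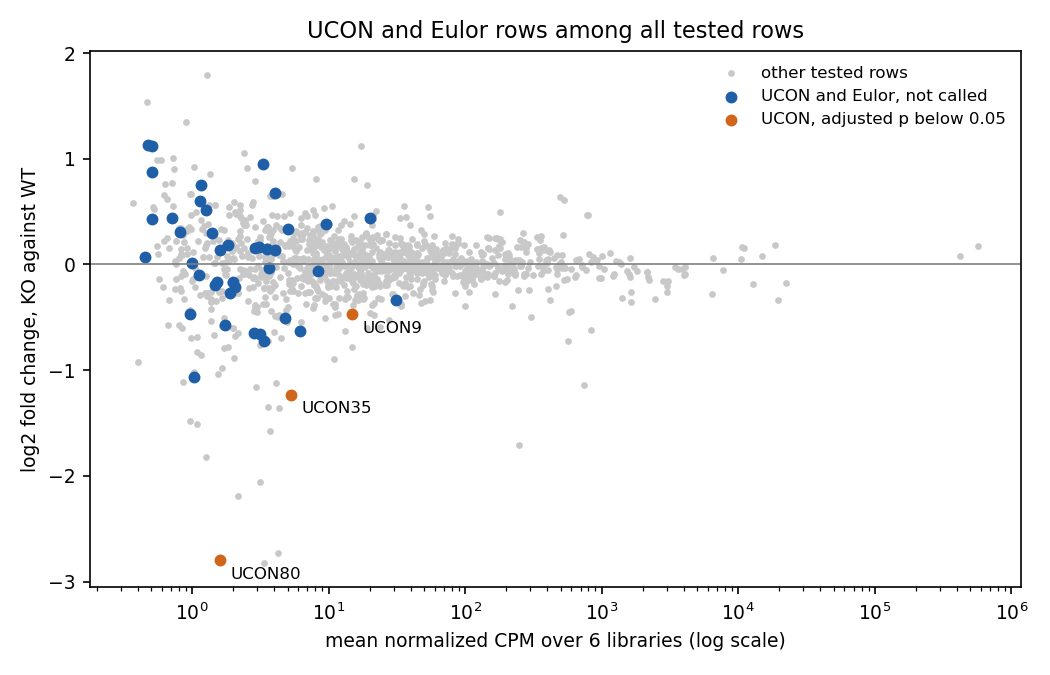
Log2 fold change of KO against WT (y axis) against mean normalized CPM over the 6 libraries (x axis, log scale) for all 1193 tested rows; grey points are other repeats and structural RNAs, blue points uncalled UCON and Eulor rows, orange points the 3 called rows. The conserved families lie mostly at low levels, where fold changes of all rows scatter widely.

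The fold changes of these families were larger than those of repeats in general, with a median absolute log2 fold change of 0.43 against 0.15 over all tested rows. Their median standard error was also larger, 0.27 against 0.12, and their counts lower. Among rows with a mean under 50 counts the median absolute log2 fold change was 0.43 for 29 UCON and Eulor rows and 0.30 for all 253. In that set the median row had a mean of 20.7 counts among UCON and Eulor rows and 23 among all, and the median standard error was 0.35 against 0.32. Among rows with at least 50 counts the median absolute log2 fold change was 0.41 for 14 UCON and Eulor rows and 0.12 for all 940. Depth was not matched there: the median mean count was 75.9 against 355, and the median standard error 0.19 against 0.10. In this better counted set 2 of 14 rows (14.3%) were called, against 6.17% of all such rows. Among rows with a mean under 50 counts 1 of 29 (3.45%) was called, against 4.35% of all such rows. These figures describe the rows and were not tested.

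Summed over rows, UCON RNA was lower and Eulor RNA higher in the KO libraries. UCON rows together had 166, 164 and 174 normalized CPM in WT and 150, 159 and 155 in KO, a KO to WT ratio of 0.920. Eulor rows together had 19.1, 18.7 and 17.1 in WT and 19.7, 19.6 and 20.7 in KO, a ratio of 1.09. The genotypes did not overlap in either sum. With DESeq2 size factors the ratios were 0.920 and 1.09, and with scaling by total counts 0.725 and 0.826, so that the Eulor sum changed direction. On the TMM scale Eulor5A (not called) went from a mean of 2.34 in WT to 4.23 in KO, more than the rise of the Eulor sum. The higher Eulor sum was thus not a shift shared by the Eulor rows. Of the 7 tested Eulor rows 5 had a log2 fold change above 0 and 2 below. The UCON and Eulor rows together stood at 186 ± 4.07 in WT and 175 ± 4.42 in KO (n = 3). Without UCON80, UCON35 and UCON9, which were chosen here because they fell, the other 102 rows stood at 159 ± 3.69 and 159 ± 3.53. The members of class Unknown summed to 82.9 ± 5.29 in WT and 71.8 ± 3.92 in KO, and those of class DNA to 79.3 ± 3.59 and 78.4 ± 1.76. Within class Unknown, UCON6 (not called) went from 35.0 to 27.7 and UCON9 from 17.2 to 12.5, together more than the fall of that sum. Of its 15 tested rows 8 had a log2 fold change above 0 and 7 below. The 62 untested rows summed to 11.8 ± 1.24 and 13.2 ± 1.81. No p-value is given for these sums.

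**Figure D5:**
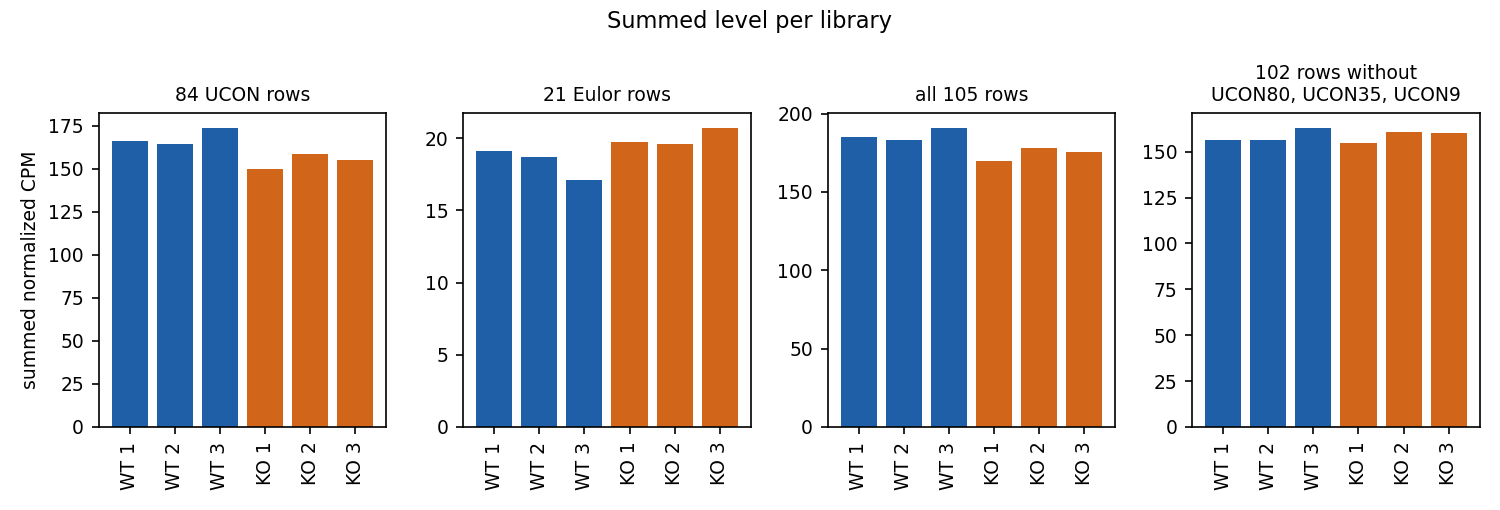
Summed normalized CPM (y axes, from 0) in each of the 6 libraries, WT in blue and KO in orange, for the UCON rows, the Eulor rows, all 105 rows and the 102 rows without the 3 called ones. The sum of all rows is 186 ± 4.07 in WT and 175 ± 4.42 in KO, and without UCON80, UCON35 and UCON9 it is 159 in each genotype.

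The share of these families among counts outside structural RNA moved with ribosomal RNA. WT replicate 1 and KO replicate 2, lowest in ribosomal RNA, had the highest shares, 0.109% and 0.101%. The share was lowest, at 0.0570% and 0.0536%, in WT replicate 2 and KO replicate 1, those with the most, and 0.0837% and 0.0787% in the replicates numbered 3. On the TMM scale the same sums stayed within 170 to 191 normalized CPM. With the ribosomal RNA level of each library as a covariate, UCON80, UCON35 and UCON9 were called again, at -2.74, -1.25 and -0.42.

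Other ancient, widely conserved repeats were listed by name for comparison: the AmnSINE and LFSINE elements, MER121 to MER136, and the X-numbered, Chompy, EUTREP, EuthAT, Eutr, MamRep, MARNA and MARE families. Of 80 such rows 58 were tested, 3 of them called higher and 2 lower in KO, with a median log2 fold change of 0.03. Calls of either direction made up 8.62% of these rows, against 5.78% of all tested rows. MARE6, annotated as a LINE, fell from 5.63 ± 1.18 to 1.87 ± 0.483 normalized CPM (log2 fold change -1.58, edgeR adjusted p = 0.0136), and X12_DNA, a Tigger element, fell by 0.33 on the log2 scale (edgeR adjusted p = 0.0206). The rows that rose were MamRep38 (0.46), MamRep605 (0.37) and MamRep564 (0.91), with edgeR adjusted p from 0.0206 to 0.0407. Each of these 5 calls was lost in at least 2 of the fits without 1 library, MamRep605 and MamRep564 in all 6. The 3 most abundant rows of this list, MARNA, MARE10 and X32_DNA, had log2 fold changes of -0.13, -0.19 and -0.12 and did not pass.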

How the data were processed

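The submitters' processing notes name FastQC 0.11.5, Trimmomatic, Bowtie2 and the builds mm10 and GRCm38. Which tool and repeat annotation gave the counts, and whether strand was used, is not given in the sources used. For each library the authors deposited estimated counts (fractional, by the file names, already whole numbers) per repeat row, without normalization.

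Rows with low counts were removed with filterByExpr in edgeR 4.0.16 (R 4.3.3), which left 1193 of 1336. Libraries were scaled by TMM, and KO was compared with WT in all 6 libraries by edgeR's quasi-likelihood test with Benjamini-Hochberg adjustment over all 1193 rows at 0.05. Standard errors came from the test statistic and 95% intervals from its t distribution. Each library was counted as a separate sample, as labelled. Outside structural RNA, replicates of a genotype differed by a chi-square of 158 or more per degree of freedom. The fit was also run on counts simulated from its own dispersions and library sizes, which cannot show whether that model suits these libraries.

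The rows and lists were chosen with earlier results of these data known. Named rows were those called, the 10 highest in level, the 5 smallest p, those whose genotypes did not overlap, and 3 on each side of the count filter (4 inside it, because of a tie). Of the related list, called rows and the 3 most abundant were named. Any other row in the text was chosen after its values were seen. Alternatives covered scaling, filters, rows in the fit, a replicate block, an rRNA covariate, left-out libraries, DESeq2 1.42.0 and limma-voom (limma 3.58.1). A filter on effective library sizes and the alternatives for summed levels were added after seeing the data. No repeat consensus sequence was used here.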

Additional observations from a re-analysis of the deposited data

How the results depend on the processing

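The 19 tested UCON and Eulor rows followed across alternatives were those of the naming rule, without the tied UCON8. Other tested UCON and Eulor rows in the text were not followed. Of the 19, UCON70 was the only one to change direction in a fit without 1 library (from -0.15 to 0.046, the latter without WT replicate 3). Leaving out each library in turn gave 1 to 5 calls among UCON and Eulor rows (3 as reported) and 21 to 66 over all rows (69 as reported). The median log2 fold change was then -0.053 to 0.12. These fits kept the 43 UCON and Eulor rows of the main filter. Applied anew to the remaining libraries, the filter kept 46 to 62, because it asks for fewer libraries when a genotype has lost 1. UCON80 was called in all 6 fits without 1 library. Without WT replicate 1 and KO replicate 2 together there were 6 calls over all rows, 1 of them in the group (UCON35), and the median was -0.044. Scaling by total counts, ribosomal RNA included, moved the median over all rows by -0.37. There edgeR made 0 calls, and 3 rows had an unadjusted p under 0.05. The group then had 0 calls, 1 row at an unadjusted p under 0.05, a median of -0.32 and a log2 ratio of summed levels of -0.44. Of the 9 followed UCON and Eulor rows above 0, UCON105 turned to -0.11 there and 8 stayed above 0. In the related list MamRep605 turned to -0.034. Without structural RNA rows 42 rows were called, 47.6% of them higher (37.7% as reported). DESeq2 called 5 rows of the group. At an unadjusted p under 0.05 DESeq2 had 13 rows of the group and 208 of all rows. The numbers were 14 and 261 with limma-voom, and 13 and 249 with edgeR as reported. The median moved to -0.044 with a mean of at least 10 counts, which 40 rows of the group reached, and to -0.061 with the filter on effective library sizes, which 39 passed. The replicate block left 24 calls over all rows and 1 in the group, UCON80 (-2.75). Deviations from the genotype mean correlated between WT and KO libraries of one number at -0.44, -0.39 and 0.02, so the numbers were not taken to pair samples. The highest correlations were 0.51, between WT replicate 1 and KO replicate 2, and 0.34, between WT replicate 2 and KO replicate 1. The first pair had the least ribosomal RNA and the second the most. The cause of these correlations, and of the changes between alternatives, was not tested. Low counts limit the precision for these rows: the median over tested UCON and Eulor rows was 15 counts in KO replicate 1 and 46 in WT replicate 1.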
